A study of Arabidopsis thaliana with 19 samples.

Results

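The S17 reporter marks cells that the labels call phloem, and its 3 arrays, of 19 arrays in the series, were set against the 16 arrays of 6 other reporters. The arrays were chosen by their titles alone. All plants carried the ap1-1 and cal1-1 mutations, were grown for 28 days and received no other treatment. Their shoot apices were digested to protoplasts, cells carrying a promoter-driven fluorescent reporter were sorted, and the RNA was amplified before it was hybridised to Affymetrix ATH1 arrays. The other populations were AtHB8 (xylem, labelled as stem, 3 arrays), HDG4 (subepidermal, 3), LAS (adaxial, 2), KAN1 (organ circumference, 3), AtML1 (epidermal, 2) and HMG (also epidermal, 3). No unsorted or wild-type sample is among them, so every difference is a difference between sorted populations of mutant apices. A reporter stands for the cells in which its promoter is active, and a sorted population may hold more than 1 cell type. Fewer cells of a type and less RNA per cell cannot be told apart in these pooled samples.

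Phloem carries sugars, amino acids and signals out of source tissue through sieve elements, living conduits that lose their nucleus and are kept alive by neighbouring companion cells. In Arabidopsis, sucrose reaches the space around the phloem through SWEET exporters and is taken up by the proton-coupled carrier SUC2, while plasma membrane proton pumps supply the gradient. Amino acids follow a like route through UMAMIT exporters and AAP importers, and the leaf vein phloem is also a known site of glucosinolate synthesis and transport.

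Values are MAS5 signals, a linear brightness per probe set that the authors scaled to the same trimmed mean on every array. Signals of different genes were not compared with each other. The test was limma on log2(signal + 1), with S17 set against the mean of the 6 other reporters, each weighted equally. A gene was called higher or lower where its p-value, adjusted by Benjamini-Hochberg, was under 0.05 and its difference was at least 1 on the log2 scale, which is 2-fold. Errors of log2 differences are standard errors of that fit over 19 arrays. All adjusted p-values in the text are limma's. A gene is said to stand above every other array where its lowest S17 array lay above the highest of the 16 others, AtHB8 included. Where a gene was called absent on every array of the dimmer side, the difference is a bound and is given as "at least N-fold". The 3 S17 arrays correlated with each other at r = 0.953 to 0.968 across the 15161 tested probe sets. Between 647 and 1002 of these probe sets differed by 2-fold or more within a pair of S17 arrays. The median r of S17 arrays with another reporter was 0.882 for AtHB8, 0.701 for KAN1 and between 0.599 and 0.648 for the rest. These correlations are across genes, which are not independent. Median signals were 170 to 183 on S17 arrays and 152 to 179 on the others. The ratio of 3' to 5' GAPDH probe sets was 6.07 to 12.3 on S17 arrays and 6.27 to 23.2 on the others. For actin this ratio was 97.5 to 153 on S17 arrays and 68.6 to 177 on the others. Signal was thus strongly weighted to the 3' end on all arrays. Nothing in the labels says that replicates came from separate sorts or plants, so p-values measure the spread between arrays, which may be technical.

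Markers of phloem were high in S17. SUC2 (AT1G22710), the companion cell sucrose loader, had signals of 1189, 958 and 1343 on the S17 arrays, against 16.4 to 307 (median 75.1) on the 16 others (log2 difference 4.21 ± 0.25, adjusted p = 2.79e-09). The S17 values lay above every other array, and the nearest were those of KAN1. BAM3 (AT4G20270), a receptor kinase of the protophloem that responds to CLE peptides, had 11529.6, 10925 and 9710.4 in S17, against 3.37 to 5894 (median 284) elsewhere (log2 difference 6.83 ± 0.43, adjusted p = 5.52e-09). Its next population was AtHB8, at 4054, 5894 and 3982. The ratio of arithmetic means put BAM3 at 11.3-fold. The companion cell proton pump AHA3 (AT5G57350) had 4494, 3142 and 3896 in S17, against 177 to 556 (median 266) elsewhere (log2 difference 3.72 ± 0.23, adjusted p = 4.7e-09), again without overlap. The phloem lectin PP2-A1 (AT4G19840), a companion cell protein that accumulates in sieve tube sap, had 475, 747 and 594 in S17 and 3.35 to 76 (median 20.3) on the others (at least 18.2-fold higher, adjusted p = 1.14e-06). The gene taken here, from background knowledge, as the source of the S17 promoter, BZIP6 (AT2G22850), had 289, 379 and 286 in S17, against 24 to 165 (median 57.2) elsewhere (log2 difference 2.38 ± 0.31, adjusted p = 9.4e-06), and stood above every other array.

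Sieve element genes did not set S17 apart from every population. APL (AT1G79430), the MYB factor required for phloem identity, had 349, 385 and 170.0 in S17 and 1.92 to 246 (median 8.74) elsewhere (log2 difference 4.11 ± 0.48, adjusted p = 3.51e-06), and the HDG4 arrays reached into the S17 range. Against AtHB8 alone, where its signals were 4.27, 1.92 and 8.93, APL was at least 9.9-fold higher, adjusted p = 1.88e-05. SEOR1 (AT3G01680) and SEOR2 (AT3G01670) encode the filament proteins of sieve elements. SEOR1 had 745, 924 and 465 in S17 (log2 difference 3.11 ± 0.56, adjusted p = 0.000246) but averaged 1516 ± 456 in HDG4 (SD, n = 3), more than in S17. SEOR2 had 509, 423 and 198 in S17 (log2 difference 2.39 ± 0.54, adjusted p = 0.00149) and 743 ± 465 in HDG4. CALS7 (AT1G06490), the callose synthase of sieve plates, had 74.4, 63.6 and 37 in S17 and 8.01 to 243 (median 67.5) elsewhere and was not called (adjusted p = 0.727). It was called present on 1 of the 3 S17 arrays. NAC045 and NAC086, which drive the loss of the sieve element nucleus downstream of APL, and the protophloem peptide gene CLE26 were absent on all 3 S17 arrays and were not tested. The companion cell genes PP2-A2, NAKR1, FT and TSF did not pass the filter on dim signals either. The 13 sieve element and companion cell genes with a probe set summed to 2710.5 to 3537 on S17 arrays. Their sum was 1262 to 1425 in AtHB8 and 3920.4 to 6273 in HDG4. In KAN1 it was 2318 to 3098 and in HMG 1463 to 2741, and both overlapped S17. The sum includes AHP6, a gene of protoxylem and young organs that was called lower in S17. The label phloem is thus matched by SUC2, AHA3, PP2-A1 and BAM3, and not by all genes of companion cells or sieve elements. Of these 4 genes, BAM3 was not called against AtHB8 alone.

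**Figure D1:**
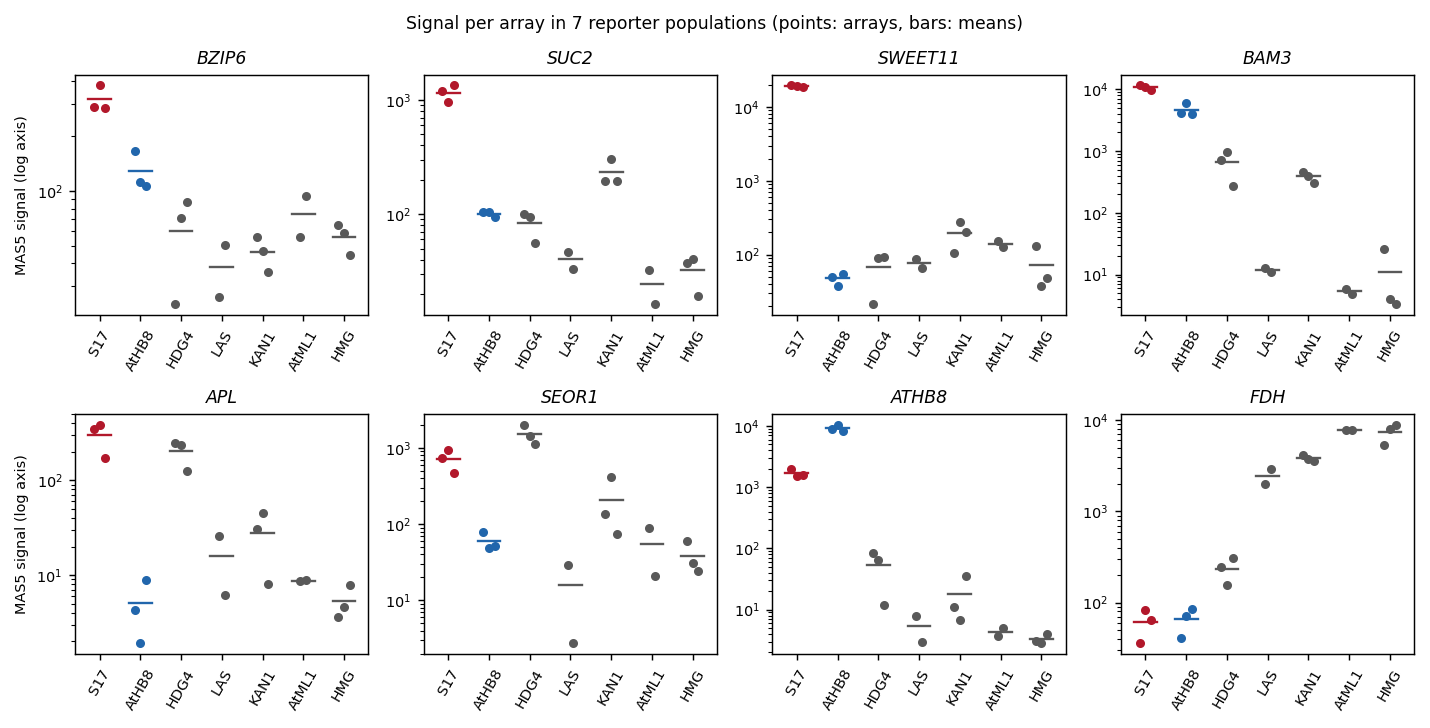
MAS5 signal on a log axis for 8 marker genes in the 7 reporter populations, with S17 leftmost; each point is an array and each bar a mean. BZIP6, SUC2, SWEET11 and BAM3 are highest on the 3 S17 arrays, APL and SEOR1 are also high in HDG4, ATHB8 is highest in AtHB8, and the epidermal gene FDH is lowest in S17 and AtHB8.

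Markers of other cells were checked in the same arrays. All 16 genes of the epidermis and cuticle list were called lower, and their summed signal was 1213 to 2515 on S17 arrays, against 1408 to 1647 in AtHB8 and 5357 to 104854 on the 13 remaining arrays. PDF2, ACR4, CER1, LACS2, BDG1, LCR and ATT1 were not called present on any S17 array. Of 16 secondary wall and vessel genes of xylem, 10 were tested and 6 were called higher. Their summed signal was 1128 to 1680 in S17, against 4356 to 6089 in AtHB8 and 246 to 534 elsewhere. On the 3 S17 arrays 8 of the 16 were absent throughout and 3 present throughout. CESA4 and CESA8 were among those called higher, so some higher calls rest on dim S17 signals. Of the defining xylem genes, VND7 was called present on 2 of 3 S17 arrays, CESA4 on 1, CESA7 on 3, and XCP1 and CESA8 on none. The part that such cells have in the differences below was not tested. Photosynthesis genes summed to 52585 to 68318 in S17, 37511 to 43638 in AtHB8 and 10643 to 62117 elsewhere, the last range ending in KAN1. Of the myrosin cell genes looked for, only FAMA had a probe set naming it. FAMA did not pass the filter on dim signals and was not tested, but was called present on all 3 S17 arrays. Its signal was 78.2 to 146 in S17, 6.97 to 59.8 in AtHB8 and 27.3 to 110 on the 13 remaining arrays.

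Against the 6 other reporters, 2112 probe sets were called higher in S17 and 1815 lower, of 15161 tested. That is 13.9% and 12% of all tested, and it is the background for the gene list counts that follow. A gene dim in all 6 other reporters passes the filter on dim signals only through S17. List counts of higher calls are thus partly set by the filter, and the lists were chosen with earlier results of these data known. Where a list has none called in a direction, limma's unadjusted p under 0.05 was reached in that direction by 1 sugar transport gene, 1 auxin carrier and 1 stress gene, all lower, and by none in the other such lists. The median log2 difference over all tested probe sets was -0.12. Of all tested probe sets, 1166 (7.69%) stood above every other array and 1025 (6.76%) below every other array. The overlap of these sets with the calls was 997 probe sets (6.58%) that were called higher and stood above every other array, and 642 (4.23%) that were called lower and stood below. Among the 997, 88 were absent on all 16 other arrays. The S17 mean was at least 2 times the next reporter's mean for 551 of the 997 and at least 4 times for 228, with a median ratio of 2.15. The next reporter was AtHB8 for 688 of them (69%) and KAN1 for 139 (13.9%), where AtHB8 held that place for 26.4% of all tested probe sets. Being called higher did not always mean highest in S17: for 618 of the 2112 another reporter had the higher mean, and for 566 of these that reporter included AtHB8. By the ratio of arithmetic means, 368 of the 2112 were under 2-fold. Just inside the limit lay SOT16 (AT1G74100), whose lowest S17 array was 1.00 times the highest other array, and AT5G14210, at 1.01 times. Just outside it lay AT3G28600 and SULTR4;2 (AT3G12520), each at 0.998 times.

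**Figure D2:**
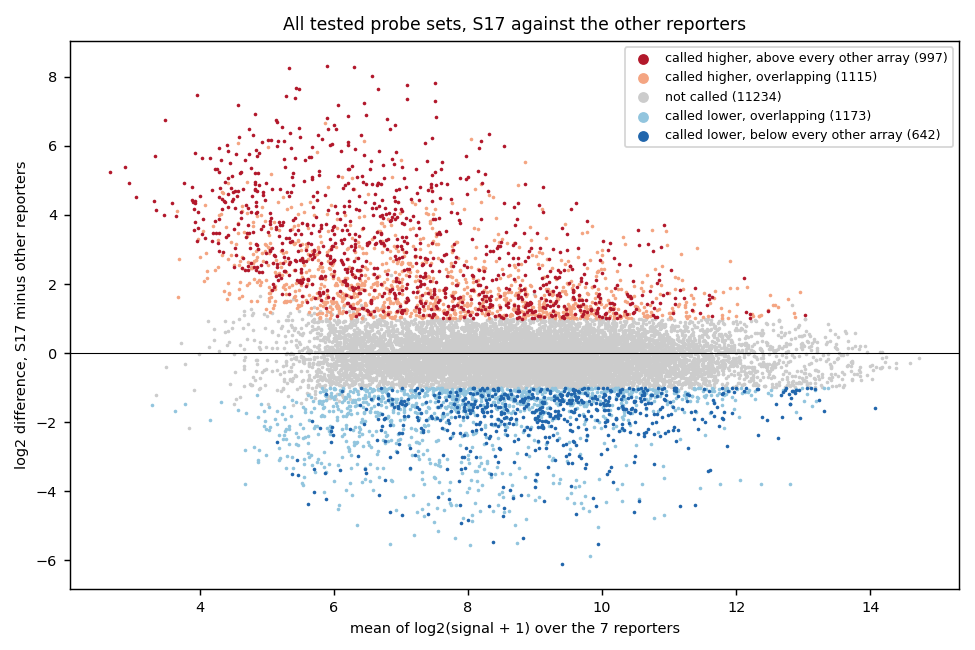
Mean of log2(signal + 1) over the 7 reporters against the log2 difference of S17 minus the mean of the 6 other reporters, for 15161 tested probe sets; each point is a probe set. Dark red points (997) were called higher and stood above every other array, light red (1115) were called higher and overlapped, dark blue (642) and light blue (1173) are the same for lower, and grey (11234) were not called.

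The largest differences belonged to genes of membrane transport, transcription, signalling and metabolism. They were ranked on the same values, so their sizes describe these arrays. The top gene was AT3G11930, a universal stress protein family member, with 8333, 7758 and 8994 in S17 and 6.78 to 127 (median 23.7) elsewhere (log2 difference 8.32 ± 0.56, adjusted p = 1.36e-08). FMO (AT1G12200), a flavin-containing monooxygenase, had 9181, 12804 and 10667 in S17 and 5.18 to 92.6 (median 39) elsewhere (log2 difference 8.28 ± 0.48, adjusted p = 2.64e-09). Among the 25 largest, the next were transporters, namely UMAMIT28, SWEET12 and SWEET11, which are described below. BZIP9 (AT5G24800), a bZIP transcription factor, had 15629, 12378 and 13384 in S17 and 24.6 to 191 (median 65.5) elsewhere (log2 difference 7.76 ± 0.26, adjusted p = 1.78e-11). GSTU20 (AT1G78370), a tau class glutathione transferase, had 5203, 3481 and 3982 in S17, against 2.97 to 210.2 (median 14.2) (log2 difference 7.64 ± 0.55, adjusted p = 2.48e-08). In each of these genes the 3 S17 values lay together and far above the other 16. Also among the 25 were 2 genes absent from every other array. AT1G26450, annotated as related to beta-1,3-glucanases, had 3368, 3524 and 3399 in S17 (at least 107-fold higher, adjusted p = 1.09e-08). HAI3 (AT2G29380), a protein phosphatase 2C of abscisic acid signalling, had 1459.5, 1881 and 1785 (at least 59.5-fold higher, adjusted p = 7.65e-08).

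Transcription factors of several families stood above every other array. After BZIP9 came the MYB family gene AT5G05790, with 564, 835 and 498 in S17 (at least 22-fold higher, adjusted p = 9.25e-08). TGA7 (AT1G77920), a TGA-type bZIP factor, had 1789.6, 1691 and 2023 in S17, 708, 1003 and 673 in AtHB8 and 2.14 to 30.2 (median 8.78) on the 13 remaining arrays (log2 difference 6.55 ± 0.56, adjusted p = 1.71e-07). The bHLH gene AT1G61660 had 1670.4, 1591 and 2177 in S17, 1239, 1089.7 and 864 in AtHB8 and 1.81 to 58.2 (median 10.3) elsewhere (log2 difference 6.37 ± 0.49, adjusted p = 5.84e-08). TGA7 and AT1G61660 were thus high in both vascular populations and dim outside them. HAM4 (AT4G36710), a GRAS factor, had 7272, 6270.2 and 7872 in S17, 2271, 2238 and 2462 in AtHB8 and 13.7 to 248 (median 48.3) elsewhere (log2 difference 6.22 ± 0.26, adjusted p = 1.3e-10). The NAC factors NAC096 (AT5G46590) and NAC097 (AT5G50820) differed in this respect. NAC096 had 633, 2479.7 and 1431 in S17 and 229.5, 224 and 446 in AtHB8 (log2 difference 6.18 ± 0.55, adjusted p = 2.58e-07 against all others). NAC097 was absent on all 16 other arrays and had 1573, 912 and 879.8 in S17 (at least 35.1-fold higher, adjusted p = 7.59e-08). MGP (AT1G03840), a zinc finger partner of SHORT-ROOT and SCARECROW in the root, had 282, 141 and 144 in S17, against 1.59 to 7.61 (median 3.12) elsewhere (at least 6.64-fold higher, adjusted p = 1.16e-09).

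Of the receptors and kinases, RUL1 (AT5G05160), a leucine-rich repeat receptor kinase known as a regulator of cambium activity, stood above every other array. It had 6104, 7603 and 5648 in S17, 1128, 928 and 1346 in AtHB8 and 2.63 to 153 (median 24) elsewhere (log2 difference 7.23 ± 0.27, adjusted p = 5.36e-11). XIP1 (AT5G49660), also called CEPR1, a receptor of C-terminally encoded peptides expressed in vascular tissue, had 3438, 3141 and 3043 in S17, 259, 286 and 229 in AtHB8 and 12.5 to 181 (median 61.5) elsewhere (log2 difference 5.40 ± 0.41, adjusted p = 4.6e-08). Both receptors were higher in S17 than in AtHB8 itself (log2 difference 2.51 ± 0.35, adjusted p = 0.000193 for RUL1 and log2 difference 3.63 ± 0.53, adjusted p = 0.00027 for XIP1). The leucine-rich repeat kinase AT5G63710 was absent from every other array and had 1393, 1541 and 1462 in S17 (at least 41.9-fold higher, adjusted p = 1.89e-06). RIPK (AT2G05940), a receptor-like cytoplasmic kinase, and CPK29 (AT1G76040), a calcium-dependent kinase, were shared with AtHB8. RIPK averaged 2741 ± 579 in S17 and 1669 ± 207 in AtHB8 (SD, n = 3 each; log2 difference 5.44 ± 0.57, adjusted p = 1.23e-06 against all others). CPK29 averaged 1680.5 ± 317 in S17 and 707 ± 93.8 in AtHB8 (log2 difference 5.09 ± 0.45, adjusted p = 2.5e-07).

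Among the enzymes, BAM5 (AT4G15210), a cytosolic beta-amylase that is known to be prominent in phloem, had 7409.6, 7303 and 4544 in S17, 636, 924 and 724 in AtHB8 and 2.89 to 173 (median 38.3) elsewhere (log2 difference 6.79 ± 0.64, adjusted p = 3.98e-07). AT3G47540, annotated as a putative chitinase, had 6559, 5492 and 4453 in S17, against 2.63 to 146 (median 60) elsewhere (log2 difference 6.91 ± 0.40, adjusted p = 2.79e-09). AT4G18340, a glycosyl hydrolase of the family of beta-1,3-glucanases, was absent on the other arrays and had 882, 1310.0 and 1663 in S17 (at least 43.1-fold higher, adjusted p = 4.25e-06). MES10 (AT3G50440), of the methyl esterase family, averaged 1535 ± 877 in S17 and 499.5 ± 113 in AtHB8 (log2 difference 6.15 ± 0.54, adjusted p = 2.07e-07 against all others). By the words of the annotation, 99 of the 922 genes that were called higher, stood above every other array and were present on all 3 S17 arrays were transcription factors. In the same count 102 were transporters or channels, 77 receptors or kinases and 228 enzymes, and a gene can be in more than 1 class. These shares of 10.7%, 11.1%, 8.35% and 24.7% stand beside 5.47%, 5.3%, 7.26% and 18.8% for the same classes among the 12100 tested genes present on all 3 S17 arrays, and were not tested.

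Sugar transporters with a known role in phloem loading were higher in S17. Of 16 tested sugar carriers, sugar-linked channels and proton pumps, 12 were called higher in S17 and none lower, against 13.9% higher among all tested probe sets, 8 stood above every other array and 1 below. The median log2 difference was 2.57, against -0.12 over all tested. SWEET11 (AT3G48740) and SWEET12 (AT5G23660), the exporters that release sucrose next to the phloem in leaves, had the largest fitted log2 differences of this list. SWEET11 had 19593, 19115 and 18486 in S17, against 21.6 to 277 (median 88.8) on the 16 others (log2 difference 7.83 ± 0.40, adjusted p = 8.16e-10). SWEET12 had 13937, 8491 and 11843 in S17, against 12 to 209 (median 40.5) (log2 difference 8.03 ± 0.40, adjusted p = 7.11e-10). Neither gene overlapped any other population, and AtHB8 was as low as the rest, at 50.5, 38.2 and 55.4 for SWEET11. SWEET10 (AT5G50790) had 7299, 5036 and 6087 in S17, 1361, 1074 and 672 in AtHB8 and 4.88 to 121 (median 50.6) elsewhere (log2 difference 6.59 ± 0.78, adjusted p = 4.12e-06). SWEET14 (AT4G25010) was absent outside S17, where it had 665, 518 and 489.7 (at least 17.5-fold higher, adjusted p = 8.4e-10). SWEET13 was called higher too, with 176, 91.6 and 167 in S17 and 23.6 to 125 (median 40.6) elsewhere (at least 3-fold higher, adjusted p = 0.00133), and overlapped the others. AKT2 (AT4G22200), the phloem potassium channel, had 525, 360.3 and 420.0 in S17, against 2.71 to 149 (median 31.7) elsewhere (log2 difference 3.77 ± 0.50, adjusted p = 1.44e-05).

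Other members of this group were shared with AtHB8 or not called. The proton pumps AHA1 and AHA2 were called higher against the 6 other reporters (AHA1 log2 difference 1.69 ± 0.14, adjusted p = 1.24e-07, AHA2 log2 difference 2.24 ± 0.15, adjusted p = 1.47e-08), but were not called against AtHB8. AHA1 averaged 15829.9 ± 703 in S17 and 17732 ± 299.8 in AtHB8, and AHA2 3649 ± 289.9 in S17 and 3827 ± 85.3 in AtHB8. The sucrose carriers split. SUC4, a vacuolar carrier, averaged 1339.8 ± 369 in S17 and 2125 ± 63.8 in AtHB8 (log2 difference 1.51 ± 0.22, adjusted p = 4.18e-05 against all others). SUC3, with 1461, 1831 and 2052 in S17 and 1042 to 2136 (median 1406) elsewhere, was not called (adjusted p = 0.0618), nor was SUC1, with 69.2, 128 and 43.3 and 42.9 to 223 (median 107) (adjusted p = 0.333). STP13, a hexose carrier, was called higher (log2 difference 2.90 ± 0.53, adjusted p = 0.000287) against all others, with means of 184 ± 34 in S17 and 216 ± 62.9 in AtHB8. The vacuolar pyrophosphatase AVP1 was not called (log2 difference -0.50, adjusted p = 0.000692), but was the 1 gene of the group that stood below every other array, and the vacuolar exporter SWEET17 was not called either. Of 9 tested genes of sucrose and raffinose metabolism, 1 was called higher and 1 lower. GOLS1 (AT2G47180), galactinol synthase of the raffinose pathway, had 1054, 2054 and 888 in S17, 475, 397 and 479.8 in AtHB8 and 3.07 to 102 (median 19.9) elsewhere (log2 difference 5.26 ± 0.54, adjusted p = 1.07e-06). ATBFRUCT1 (AT3G13790), a cell wall invertase, was absent in S17 at 4.89, 4.28 and 39.7, against 29.9 to 914 (median 300.2) elsewhere (at least 7.99-fold lower, adjusted p = 9.7e-07). The sucrose synthases SUS1, SUS2, SUS3, SUS4 and SUS6 were not called.

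Amino acid and nitrate transporters were also higher in S17. Of 14 tested, 12 were called higher and 1 lower, 11 stood above every other array, and the median log2 difference was 4.53 (4.23 with bounds in place of fitted values). UMAMIT28 (AT1G01070) and UMAMIT18 (AT1G44800) belong to a family of amino acid exporters. UMAMIT28 had 7494, 4335 and 4969 in S17, 437, 572 and 638 in AtHB8 and 1.56 to 64.9 (median 4.31) elsewhere (log2 difference 8.26 ± 0.74, adjusted p = 2.57e-07). UMAMIT18 had 4962, 3798 and 5724 in S17, 595, 468 and 517 in AtHB8 and 6.5 to 58.3 (median 20) elsewhere (log2 difference 7.19 ± 0.44, adjusted p = 4.53e-09). The order S17, AtHB8, then the rest held for both exporters on every array. UMAMIT14 (AT2G39510) was absent outside S17 and had 456, 320.4 and 315 there (at least 11.2-fold higher, adjusted p = 1.66e-05). AAP6 (AT5G49630) and AAP2 (AT5G09220) are amino acid importers. AAP6 had 8227, 6149.6 and 5834 in S17, 2396, 1992 and 1291 in AtHB8 and 36.9 to 366 (median 115) elsewhere (log2 difference 5.18 ± 0.32, adjusted p = 5.18e-09). AAP2, which moves amino acids into phloem along the transport path, had 1193, 1353 and 1645 in S17, against 25.1 to 273 (median 84.6) (log2 difference 3.85 ± 0.26, adjusted p = 1.41e-08). The nitrate carrier NPF2.13 (AT1G69870), which loads nitrate into leaf phloem, had 2364, 3088 and 3315 in S17, 1258, 1435 and 836 in AtHB8 and 22.1 to 282 (median 53.6) elsewhere (log2 difference 4.70 ± 0.26, adjusted p = 1.63e-09). The one gene of the group called lower was LHT1 (AT5G40780), a lysine and histidine importer of mesophyll and root epidermis, at 6.26, 23.4 and 3.53 in S17 and 5.4 to 3260.2 (median 370.4) elsewhere (at least 13.1-fold lower, adjusted p = 1.09e-07). AAP3 was not called (adjusted p = 0.646).

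Of 9 tested carriers of metals and metal chelates, sulfate and phosphate, the oligopeptide transporter gene OPT3 among them, 7 were called higher and none lower, and 5 stood above every other array, with a median log2 difference of 2.93. YSL1 (AT4G24120), a carrier of metal-nicotianamine complexes, had 1042, 1322 and 1205 in S17, 623, 691 and 612 in AtHB8 and 4.59 to 127 (median 56.8) elsewhere (log2 difference 4.38 ± 0.56, adjusted p = 9.15e-06). HMA4 (AT2G19110), a zinc pump of vascular tissue, had 5600.3, 4779 and 4832 in S17, 1363, 1339 and 1278 in AtHB8 and 65.4 to 581 (median 109) elsewhere (log2 difference 4.68 ± 0.17, adjusted p = 5.17e-11). SULTR2;2 (AT1G77990), a sulfate carrier of phloem in roots, had 571, 444 and 409 in S17, 183, 172 and 163 in AtHB8 and 1.99 to 34 (median 6.08) elsewhere (log2 difference 5.12 ± 0.46, adjusted p = 2.6e-07). All 3 were high in S17, intermediate in AtHB8 and low elsewhere. The call of YSL3 (log2 difference 1.11 ± 0.33, adjusted p = 0.00969) was lost without S17 replicate 3 or AtML1 replicate 1 (log2 difference 0.84, adjusted p = 0.0871, without S17 replicate 3). OPT3, which moves iron into phloem, and YSL2 were not called, with 661, 477 and 568 in S17 and 307 to 1058 (median 545) elsewhere for OPT3 (adjusted p = 0.878).

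Every tested glucosinolate gene was called higher in S17. Of 23 genes in the list, 21 had a probe set and 15 passed the filter on dim signals. All 15 were called higher, 13 stood above every other array, and the median log2 difference was 3.17 (2.65 with bounds). A gene dim in all 6 other reporters passes that filter only through S17, so this share is partly set by the filter. Of the 21, 5 were called absent on all 3 S17 arrays. The 6 that did not pass the filter include the factors MYB29 and MYB76 and the chain elongation genes MAM1, MAM3 and BCAT4. MYB28 (AT5G61420), the main factor of the aliphatic branch, had 432, 310.3 and 467 in S17, against 2.77 to 55.3 (median 9.3) elsewhere (at least 12.9-fold higher, adjusted p = 3.19e-08). CYP83B1 (AT4G31500), of core structure synthesis in the indole branch, had 3357, 5246 and 5273 in S17, against 25.9 to 241 (median 113) (log2 difference 5.55 ± 0.26, adjusted p = 3.37e-10). CYP83A1 (AT4G13770), its aliphatic counterpart, was absent elsewhere and had 518, 317 and 624 in S17 (at least 14-fold higher, adjusted p = 1.75e-05). Genes of both branches were thus raised, and those of the shared last steps too. UGT74B1 (AT1G24100), the glucosyltransferase of the core pathway, had 2737, 5316 and 3971 in S17, against 567 to 1793 (median 986) (log2 difference 1.97 ± 0.19, adjusted p = 4.51e-07). The sulfotransferase SOT18 (AT1G74090) had 968, 1221 and 1062 in S17, against 84.7 to 385 (median 165) (log2 difference 2.64 ± 0.20, adjusted p = 4.88e-08). AOP3 (AT4G03050), a dioxygenase of side chain modification and not a member of the list, was among the 25 largest differences, with 4048, 2482 and 3486 in S17 and 6.52 to 101 (median 42.4) elsewhere (log2 difference 6.62 ± 0.46, adjusted p = 1.79e-08). ESP (AT1G54040), the epithiospecifier protein that directs glucosinolate breakdown, had 13682, 12700.0 and 13098 in S17, against 3.84 to 1467 (median 276) elsewhere (log2 difference 6.01 ± 0.71, adjusted p = 4.31e-06). The calls of SUR1 and of the glucosyltransferase gene AT2G31790 each rested on an array. SUR1 (log2 difference 1.20 ± 0.17, adjusted p = 3.28e-05) was lost without S17 replicate 2 (log2 difference 0.93, adjusted p = 0.000436), and AT2G31790 (log2 difference 1.75 ± 0.53, adjusted p = 0.0103) without S17 replicate 1 (log2 difference 1.62, adjusted p = 0.0502).

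The glucosinolate importers were high in AtHB8 as well. GTR1 (AT3G47960) and GTR2 (AT5G62680) load glucosinolates into phloem. GTR1 had 7416, 10380.0 and 8049 in S17, 6872, 7777 and 9765 in AtHB8 and 307 to 1733 (median 608) elsewhere (log2 difference 3.17 ± 0.20, adjusted p = 5.02e-09 against all others), and the vascular populations overlapped. GTR2 had 1112, 1276 and 2245 in S17, 674, 753 and 798 in AtHB8 and 8.67 to 159 (median 61.4) elsewhere (log2 difference 4.43 ± 0.46, adjusted p = 1.19e-06), without overlap. Against AtHB8 alone the log2 differences were 0.08 (adjusted p = 0.868) for GTR1 and 0.99 (adjusted p = 0.295) for GTR2, and neither was called. Of the 15 tested genes of the list, 10 were called higher against AtHB8 and 0 lower. Among the 10 were CYP83B1 (log2 difference 4.47 ± 0.33, adjusted p = 5e-07), CYP79B3 (at least 7.78-fold higher, adjusted p = 0.0109) and UGT74B1 (log2 difference 2.07 ± 0.24, adjusted p = 4.06e-05). The call of CYP79B2 against AtHB8 (adjusted p = 0.0449) was lost in 12 of the 19 fits that left out 1 array. That of SOT17 was lost without AtHB8 replicate 3 (adjusted p = 0.0521).

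**Figure D3:**
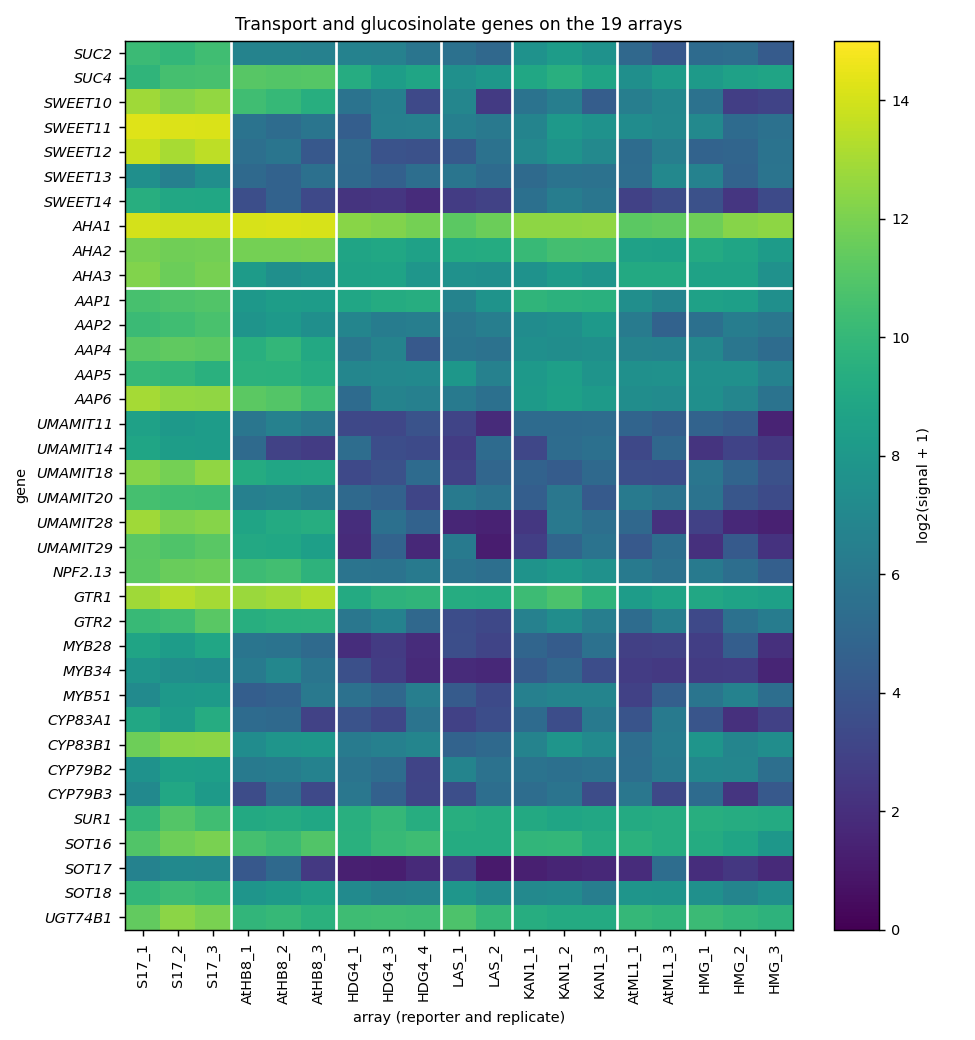
log2(signal + 1) of 36 genes on the 19 arrays, with S17 arrays at the left and white lines between reporters and between sugar, amino acid and nitrate, and glucosinolate genes. The S17 columns are the brightest for most rows, AHA1, AHA2 and GTR1 are as bright in AtHB8, and SWEET11 and SWEET12 are bright in S17 only.

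Vascular Dof transcription factors were mostly higher. Of 12 tested, 10 were called higher and none lower, 6 stood above every other array, and the median log2 difference was 3.06. OBP2 (AT1G07640), a Dof factor of phloem that activates glucosinolate genes, had 2497, 2127 and 2041 in S17, against 2.54 to 129 (median 72.7) elsewhere (log2 difference 5.84 ± 0.48, adjusted p = 9.94e-08). AT2G28810 had 1901, 1571 and 1951 in S17, against 16.7 to 109 (median 65.1) (log2 difference 4.87 ± 0.24, adjusted p = 5.09e-10), and AT5G02460 had 283, 314 and 446 and was absent elsewhere (at least 10.1-fold higher, adjusted p = 7.76e-05). DOF2.4 (AT2G37590), a procambial Dof of the protophloem, had 319, 367 and 323 in S17, 235, 232 and 288 in AtHB8 and 47.5 to 143 (median 82.3) elsewhere (log2 difference 1.74 ± 0.18, adjusted p = 9.28e-07). Against AtHB8 the log2 difference of DOF2.4 was 0.42 (adjusted p = 0.241) and was not called. Over the 12 genes, 4 were called higher and 3 lower in S17 than in AtHB8, with a median log2 difference of 0.00 from AtHB8. With any 1 array left out, 3 to 4 were higher and 1 to 3 lower. The higher call of DOF5.6 (adjusted p = 0.0199) was lost without S17 replicate 1 or 2 or AtHB8 replicate 2 (adjusted p = 0.0956 without AtHB8 replicate 2). The 3 lower were TMO6 (log2 difference -1.49 ± 0.45, adjusted p = 0.0349), DOF2 (log2 difference -1.65 ± 0.23, adjusted p = 0.000183) and AT2G28510 (log2 difference -1.64 ± 0.39, adjusted p = 0.0101). The call of TMO6 against AtHB8 was lost without S17 replicate 1 or 2 or 3 or AtHB8 replicate 1 or 2 or 3 (log2 difference -1.26, adjusted p = 0.125, without S17 replicate 3), and that of AT2G28510 without AtHB8 replicate 3 (log2 difference -1.36, adjusted p = 0.0518). AT4G24060 and DAG2 were called higher against all others and not called against AtHB8, with log2 differences from AtHB8 of -0.41 (adjusted p = 0.731) and -0.62 (adjusted p = 0.606).

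Of the 10 tested phloem regulators, 5 were called higher and none lower. Beside APL and BAM3 these were SMXL3 (AT3G52490), SMXL5 (AT5G57130) and OPS (AT3G09070), genes that promote phloem formation. SMXL3 had 355, 281 and 323 in S17, against 2.88 to 197 (median 21.1) (log2 difference 3.81 ± 0.65, adjusted p = 0.000148), and stood above every other array. SMXL5 (log2 difference 3.04 ± 0.78, adjusted p = 0.00381) and OPS (log2 difference 1.96 ± 0.36, adjusted p = 0.000267) overlapped AtHB8. SMXL5 averaged 532 ± 132 in S17 and 805 ± 24.9 in AtHB8, and OPS 302 ± 153 in S17 and 307 ± 73.8 in AtHB8 (SD, n = 3 each). CVP2, CVL1, CRN, MAKR5 and NEN1 were not called against all others. Against AtHB8 alone, 2 of the 10 were called higher and 1 lower, with a median log2 difference of 0.16. The 2 higher were APL and MAKR5 (adjusted p = 0.00787), and the call of MAKR5 was lost without AtHB8 replicate 3. The 1 lower was CVL1 (log2 difference -2.14, adjusted p = 5.61e-05). Of 9 tested sieve element and companion cell genes, 4 were called higher, which are SEOR1, SEOR2, PP2-A1 and FTIP1 (AT5G06850), a companion cell protein that moves the florigen FT. FTIP1 had 179, 152 and 158 in S17 and was absent elsewhere (at least 4.83-fold higher, adjusted p = 0.000126). The 1 called lower was AHP6 (AT1G80100), a cytokinin signalling inhibitor of protoxylem and young organs, at 38.9, 26 and 45.3 in S17 and 118 to 1877 (median 830.2) elsewhere (at least 14.7-fold lower, adjusted p = 4.34e-08).

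Among lists of wider function, jasmonate synthesis genes were mostly called higher, and most stress and wounding genes were not called. Of 12 tested jasmonate synthesis genes, 8 were called higher and 1 lower, with a median log2 difference of 1.43. Against AtHB8 none was called higher (4 at limma's unadjusted p under 0.05) and 1, LOX2, was called lower (adjusted p = 0.0207). That call was lost without S17 replicate 1 or 3 or AtHB8 replicate 1 or 2 (adjusted p = 0.0861 without AtHB8 replicate 1). Their summed signal was 61321 to 76500 in S17, 67190 to 71090 in AtHB8 and 16088 to 35028.5 elsewhere, so the vascular populations overlapped. JAR1, which joins jasmonate to isoleucine, averaged 8176 ± 3864 in S17 and 12158 ± 826 in AtHB8 (log2 difference 2.45 ± 0.22, adjusted p = 3.16e-07 against all others), and OPR3, a reductase of the pathway, 14493 ± 3577 in S17 and 12068 ± 160.3 in AtHB8 (log2 difference 1.91 ± 0.17, adjusted p = 2.25e-07). Against all others the gene called lower was also LOX2, a chloroplast lipoxygenase (at least 2.34-fold lower, adjusted p = 0.000801). Of 13 stress and wounding genes tested, 2 were called higher and none lower, which is near the 13.9% called higher among all tested probe sets. The list's median log2 difference was 0.21. The 2 genes were HSP70 (log2 difference 2.84 ± 0.26, adjusted p = 3.34e-07) and HSP101 (log2 difference 1.43 ± 0.31, adjusted p = 0.00108). Both had a higher mean in AtHB8, with means of 2771 ± 916 in S17 and 4644 ± 658 in AtHB8 for HSP70. The touch, wound and jasmonate response genes TCH2, TCH3, TCH4, WRKY33, WRKY40, ZAT10, ZAT12, JAZ1, JAZ2, MYC2 and RBOHD were not called.

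Of 19 tested photosynthesis genes, 13 were called higher and none lower, 3 stood above every other array, and the median log2 difference was 1.25. GAPA, a chloroplast glyceraldehyde-3-phosphate dehydrogenase, had 8884, 5526 and 7520.4 in S17, against 342 to 5143 (median 1270.5) elsewhere (log2 difference 2.28 ± 0.29, adjusted p = 8.19e-06). LHCB3, an antenna protein, had 2975, 3648 and 5008 in S17 and averaged 3683 ± 617 in KAN1 (SD, n = 3), and overlapped it. The carbonic anhydrase gene CA1, a marker of mesophyll, was absent in S17 at 22.9, 26 and 10.1 and was not called (adjusted p = 0.135). Of 10 tested auxin carriers, 5 were called higher and none lower, 2 stood above every other array and 1, ABCB19, below. Their summed signal was 12987 to 14455 in S17, 21951 to 25749 in AtHB8 and 6819 to 15629.6 on the 13 remaining arrays. LAX3 (AT1G77690), an influx carrier, was absent elsewhere and had 1073, 568 and 699.6 in S17 (at least 25-fold higher, adjusted p = 1.94e-07). PIN7 (AT1G23080), an efflux carrier, had 416, 433 and 386 in S17, 129.7, 203 and 67.7 in AtHB8 and 2.19 to 191 (median 4.07) elsewhere (log2 difference 4.56 ± 0.46, adjusted p = 8.23e-07), while LAX1, LAX2, AUX1, ABCB1 and ABCB19 were not called. Against AtHB8, LAX3 was called higher (at least 18.8-fold higher, adjusted p = 0.0001) and 3 carriers lower, PIN6 (log2 difference -2.0 ± 0.35, adjusted p = 0.0013), LAX2 (log2 difference -2.97 ± 0.34, adjusted p = 3.3e-05) and AUX1 (log2 difference -1.0 ± 0.25, adjusted p = 0.0141). The call of AUX1 was lost without S17 replicate 2 or 3 or AtHB8 replicate 1 or 2 (log2 difference -0.91, adjusted p = 0.054, without S17 replicate 2).

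The xylem reporter AtHB8 is the closest population, and S17 was also set against it alone. The comparison shares the S17 and AtHB8 arrays with the comparison above, so the values are given side by side. Of the tested probe sets 660 (4.35%) were called higher in S17 than in AtHB8 and 637 (4.2%) lower, and the median log2 difference was -0.04. The largest differences upward belonged to genes that were dim in AtHB8. AT1G26450 had 3368, 3524 and 3399 in S17 and 11.1, 1.87 and 6.88 in AtHB8 (at least 119-fold higher, adjusted p = 2.98e-07). FMO was at least 302-fold higher, adjusted p = 2.78e-07 against AtHB8, and SWEET12 at least 248-fold higher, adjusted p = 1.55e-07. SWEET11, present on 1 of 3 AtHB8 arrays, had log2 difference 8.62 ± 0.52, adjusted p = 1.18e-07. UMAMIT23 (AT1G68170) had 693, 473 and 572 in S17, 4.6, 3.3 and 3.63 in AtHB8 and 3.44 to 132 (median 11.8) on the remaining arrays (at least 19.9-fold higher, adjusted p = 9.65e-06 against AtHB8). The subtilase AT2G39850 had 1145, 1161 and 1123 in S17 and 5.35, 10.8 and 8.92 in AtHB8 (at least 39.7-fold higher, adjusted p = 1.51e-05).

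Genes of procambium and early xylem ran the other way. Of 15 tested, 10 were called higher and 1 lower in S17 against the 6 other reporters, but 8 were called lower and 1 higher against AtHB8. With any 1 array left out, 6 to 9 were lower against AtHB8. ATHB8 (AT4G32880), the gene of that reporter, had 2017, 1527 and 1599.7 in S17, 9063, 10473 and 8374 in AtHB8 and 2.84 to 85.3 (median 6.71) elsewhere. It was called higher against all others (log2 difference 5.81 ± 0.47, adjusted p = 8.76e-08) and lower against AtHB8 (log2 difference -2.44 ± 0.61, adjusted p = 0.0131). PXY (AT5G61480), the procambial receptor of TDIF peptides, had 2116, 1779 and 1710.1 in S17, 6308, 6865 and 5685 in AtHB8 and 7.99 to 154 (median 82.2) elsewhere, with log2 difference -1.75 ± 0.42, adjusted p = 0.0104 against AtHB8. TMO5 (AT3G25710), a bHLH factor of early vascular cells, had 369, 439 and 329 in S17, 2955, 3623 and 3395 in AtHB8 and 4.38 to 144 (median 89.3) elsewhere (log2 difference 2.22 ± 0.18, adjusted p = 1.01e-07 against all others, log2 difference -3.13 ± 0.24, adjusted p = 5.59e-07 against AtHB8). The ratio of arithmetic means put TMO5 at a log2 ratio of -0.68 against all others. All 3 genes were lowest outside the vascular populations and highest in AtHB8, with S17 between. MP (AT1G19850), the auxin response factor of vascular initiation, was lowest in S17, at 481, 514 and 739, against 5335, 7465 and 4892 in AtHB8 and 1789 to 3587 (median 2284) elsewhere (log2 difference -2.23 ± 0.20, adjusted p = 2.12e-07 against all others). RUL1 was the only gene of the list called higher in S17 than in AtHB8 over all 19 arrays, and 2 were called without HDG4 replicate 1, HMG replicate 1 or KAN1 replicate 2 or 3. XND1, which represses xylem differentiation, and MOL1, a receptor-like protein that represses cambium, stood above every other array. XND1 had 469, 286 and 397 in S17, 119, 164 and 101 in AtHB8 and 3.62 to 28.4 (median 6.49) elsewhere (log2 difference 4.77 ± 0.41, adjusted p = 1.71e-07), and MOL1 had 2033, 1841 and 1791 in S17, 1043, 1031 and 886 in AtHB8 and 713 to 1038 (median 929.5) elsewhere (log2 difference 1.08 ± 0.10, adjusted p = 3.13e-07). Against AtHB8 the lower call of ACL5, the thermospermine synthase, was lost without S17 replicate 2 or 3 or AtHB8 replicate 1 or 2 or 3 (log2 difference -2.10, adjusted p = 0.0779, without S17 replicate 2), and that of AT1G29950 without S17 replicate 1 or 2 or AtHB8 replicate 1 or 2 or 3 (log2 difference -1.71, adjusted p = 0.0787, without S17 replicate 2). The call of AT1G29950 against all others (log2 difference 1.32 ± 0.40, adjusted p = 0.0106) was lost without S17 replicate 3 (log2 difference 1.11, adjusted p = 0.0711).

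Secondary wall genes had a lower summed signal in S17 than in AtHB8, as given above, and 4 to 8 of them were called higher against all others with any 1 array left out. XCP2, a protease of vessel elements, had 541, 351 and 585 in S17, 1829, 1959 and 2711 in AtHB8 and 2.75 to 72.3 (median 37.9) elsewhere (log2 difference 2.89 ± 0.68, adjusted p = 0.00209 against all others). VND6, a master factor of vessels, averaged 85.6 ± 29.8 in S17 and 355 ± 114 in AtHB8 (log2 difference 2.78 ± 0.53, adjusted p = 0.000379). Against AtHB8 none of the 10 tested was higher in S17 by limma, also at an unadjusted p under 0.05, and 1, the cellulose synthase CESA8, was lower (log2 difference -1.36 ± 0.41, adjusted p = 0.0348), a call that was lost without S17 replicate 2 or 3 or AtHB8 replicate 1 or 3 (log2 difference -1.06, adjusted p = 0.146, without AtHB8 replicate 3). The count of such lower calls was 0 without S17 replicate 2 or 3 or AtHB8 replicate 3, and reached 4 without HDG4 replicate 3. Calls against all others were lost for VND7 without S17 replicate 2 or 3 (log2 difference 1.73, adjusted p = 0.095, without S17 replicate 3), for CESA4 without S17 replicate 1 or 3 (log2 difference 1.19, adjusted p = 0.104, without S17 replicate 3) and for LAC4, a laccase, without S17 replicate 1 or 2 or 3 or AtHB8 replicate 1 or 2 or LAS replicate 2 or KAN1 replicate 3 (log2 difference 1.32, adjusted p = 0.143, without S17 replicate 1). VND7 had a log2 ratio of -0.19 by arithmetic means. Other genes called higher against all others were shared by the 2 vascular populations. SHR (AT4G37650), the GRAS factor SHORT-ROOT of the stele, had 2405, 2616 and 2210.3 in S17, 2616, 2672 and 2397 in AtHB8 and 7.03 to 144 (median 58.6) elsewhere (log2 difference 5.10 ± 0.54, adjusted p = 1.38e-06). AT1G78110 had 1154, 829 and 741 in S17, 1137, 893 and 788 in AtHB8 and 1.15 to 27.8 (median 3.34) elsewhere (log2 difference 6.10 ± 0.53, adjusted p = 1.96e-07). AT3G18280, of the lipid transfer protein family, had 3336, 3785 and 3466 in S17, 7512, 6869 and 7839.6 in AtHB8 and 3.45 to 107 (median 29.2) elsewhere (log2 difference 5.58 ± 0.53, adjusted p = 4.69e-07). Of the genes called higher that did not stand above every other array, the largest difference was that of ATSBT5.2 (AT1G20160), a subtilase, with 2619, 3155 and 3416 in S17, 1861, 3032 and 1809.7 in AtHB8 and 2.14 to 74.5 (median 12.1) elsewhere (log2 difference 6.65 ± 0.67, adjusted p = 8.46e-07). The amino acid carrier gene AT1G25530 came next among transporters, with 10044, 9534 and 11962 in S17 and 8120.2, 7912 and 9614 in AtHB8 (log2 difference 6.19 ± 0.59, adjusted p = 4.85e-07 against all others). In every one of these genes it was AtHB8 arrays that reached or passed the S17 range. For AT3G18280 all 3 AtHB8 arrays lay above S17.

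**Figure D4:**
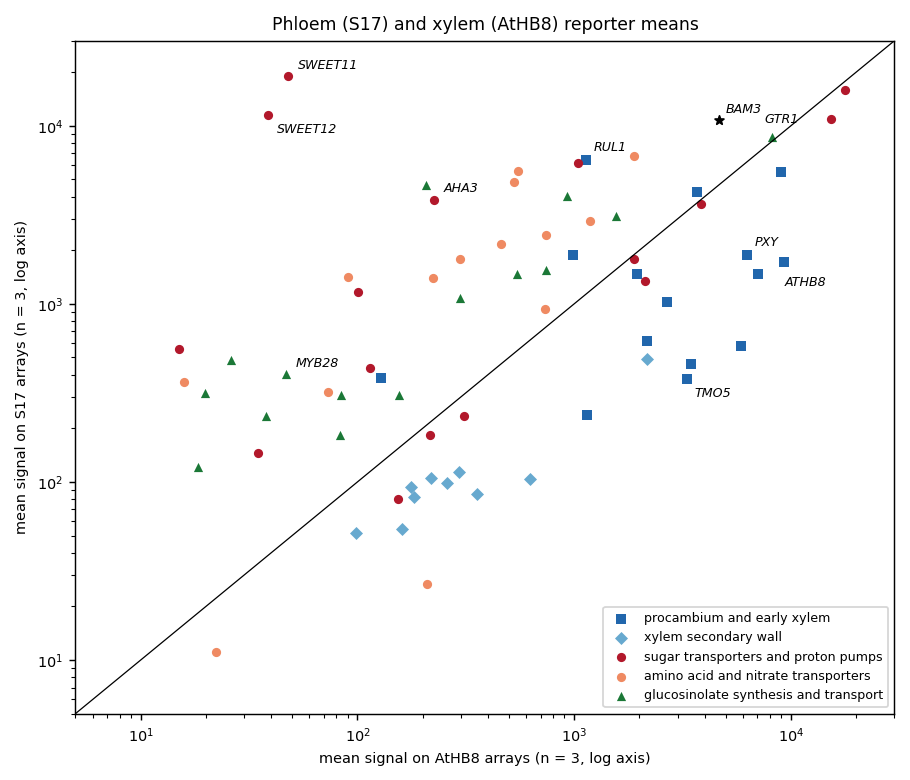
Mean signal on the 3 S17 arrays (vertical) against the 3 AtHB8 arrays (horizontal), both on log axes, for the tested members of 5 gene lists, with BAM3 as a star and the line of equal means. Procambium and xylem genes lie mostly below the line, sugar, amino acid and glucosinolate genes mostly above it, with SWEET11 and SWEET12 the furthest from it.

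Flavonoid, epidermal and cell division genes, and some meristem genes, were among those lower in S17. Of 10 tested flavonoid synthesis genes, 7 were called lower and none higher, against 12% lower among all tested, with a median log2 difference of -2.46 (-2.09 with bounds). F3H (AT3G51240), flavanone 3-hydroxylase, had 24.5, 32.9 and 55.5 in S17, against 165 to 6018 (median 1699) elsewhere (log2 difference -5.54 ± 0.29, adjusted p = 1.16e-09), and stood below every other array. FLS1 (AT5G08640), flavonol synthase, was absent in S17 at 9.2, 50.1 and 39.8, against 16.4 to 9199 (median 2023) (at least 38.8-fold lower, adjusted p = 2.38e-07). CHIL (AT5G05270), a chalcone isomerase-like gene outside the list, was absent in S17 at 29.6, 7.23 and 7.47, against 49.6 to 2092 (median 455) (at least 14-fold lower, adjusted p = 1.57e-07). AtHB8 had 423, 279 and 165 for F3H, 180.4, 80.5 and 16.4 for FLS1 and 78.5, 49.6 and 77 for CHIL. F3H (log2 difference -2.88 ± 0.38, adjusted p = 0.000116) and CHIL (adjusted p = 0.00757) were also called lower in S17 than in AtHB8, and FLS1 was not (adjusted p = 0.26). The flavonol glycosyltransferase UGT78D1 was higher in S17 than in AtHB8, at 364, 498 and 551 against 8.1, 63.1 and 10.5 (at least 11.3-fold higher, adjusted p = 1.98e-05).

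The epidermis and cuticle list had a median log2 difference of -4.0 (-3.82 with bounds), and 2 of its 16 genes stood below every other array. ATML1 (AT4G21750), the epidermal identity factor, had 141, 77.9 and 134 in S17, against 80.7 to 10344 (median 4489.6) elsewhere (log2 difference -3.94 ± 0.23, adjusted p = 3.14e-09). FDH (AT2G26250), a fatty acid elongase of the epidermis, had 36, 82.5 and 65.1 in S17, 41.4, 71.3 and 84.4 in AtHB8 and 158 to 8924 (median 3781) elsewhere (log2 difference -4.58 ± 0.26, adjusted p = 1.89e-09). S17 and AtHB8 overlapped in both. LTP2 (AT2G38530), a lipid transfer protein of the cuticle, was below every other array at 22.6, 66.9 and 73.1, against 151 to 5312 (median 1229.9) (at least 22.1-fold lower, adjusted p = 3.78e-07). ABCG34 (AT2G36380), an ABC transporter, had 41, 58.1 and 136 in S17, against 163 to 3404 (median 2235) (log2 difference -4.41 ± 0.25, adjusted p = 2.23e-09).

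Of 20 tested meristem, boundary and polarity genes, 10 were called lower and 2 higher, with a median log2 difference of -0.91 (-0.49 with bounds). A low summed signal was not particular to S17. The sum was 17251 to 19886 in S17, above KAN1 at 13498 to 14605 and overlapping AtML1 at 18689 to 19786. In AtHB8 it was 27496 to 30314. UFO (AT1G30950), an F-box protein of floral meristems, was absent in S17 at 12.9, 20.9 and 11.6, against 47.5 to 1744 (median 246) (at least 10.1-fold lower, adjusted p = 7.91e-09). CUC1 (AT3G15170), a boundary factor, was absent at 56.5, 1.17 and 20, against 2.01 to 454 (median 175) (at least 4.28-fold lower, adjusted p = 0.00196), and LFY (AT5G61850), the floral identity factor, was present at 271, 560.2 and 419, against 739 to 4991 (median 2019) (log2 difference -2.31 ± 0.19, adjusted p = 9.49e-08). Those called higher were the KNOX genes KNAT1 and KNAT2. KNAT1 (AT4G08150) had 3166, 2403 and 2491 in S17, against 115 to 2325 (median 552) (log2 difference 2.35 ± 0.13, adjusted p = 1.54e-09), and the call of KNAT2 (log2 difference 1.12 ± 0.13, adjusted p = 3.78e-06) was lost without S17 replicate 1 (log2 difference 0.94, adjusted p = 5.99e-05). STM, another KNOX gene, was not called, with 4715, 4976 and 3485 in S17 and 1126 to 6296 (median 3927) elsewhere (adjusted p = 0.0146). ULT1 (AT4G28190), a floral meristem regulator, had 96.1, 89.3 and 91.6 in S17, against 617 to 4797 (median 2479.8) (log2 difference -4.59 ± 0.14, adjusted p = 1.17e-11), and MYB17 (AT3G61250), a MYB factor of young flowers, had 111, 145 and 268 in S17, against 446 to 6346 (median 5234) (log2 difference -4.44 ± 0.18, adjusted p = 1.26e-10). S17 stood below every other array for both.

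Of 18 tested cell division genes, 15 were called lower and none higher, and 9 stood below every other array, with a median log2 difference of -1.59. CYCB1;1 (AT4G37490), a mitotic cyclin, had 374, 383 and 386 in S17, 780.1, 800.4 and 895 in AtHB8 and 1021 to 4803 (median 2372) elsewhere (log2 difference -2.40 ± 0.17, adjusted p = 1.93e-08). MCM7 (AT4G02060), of the replication helicase, had 589.7, 545 and 380.3 in S17, against 729 to 5199 (median 2820.2) (log2 difference -2.31 ± 0.22, adjusted p = 5.21e-07), and PCNA1 (AT1G07370), the replication clamp, 1032, 1066 and 867 in S17, against 1131 to 9774 (median 5190.1) (log2 difference -2.10 ± 0.15, adjusted p = 2.3e-08). The genes not called were CYCB2;1, CYCB2;2 and CYCD3;1. Summed over the 18 genes, signals were 10563 to 12372 in S17, 16768 to 20648 in AtHB8 and 28560 to 50900 elsewhere, and the 3 ranges did not meet. Every gene of this list that was called lower was nevertheless called present on all 3 S17 arrays.

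**Figure D5:**
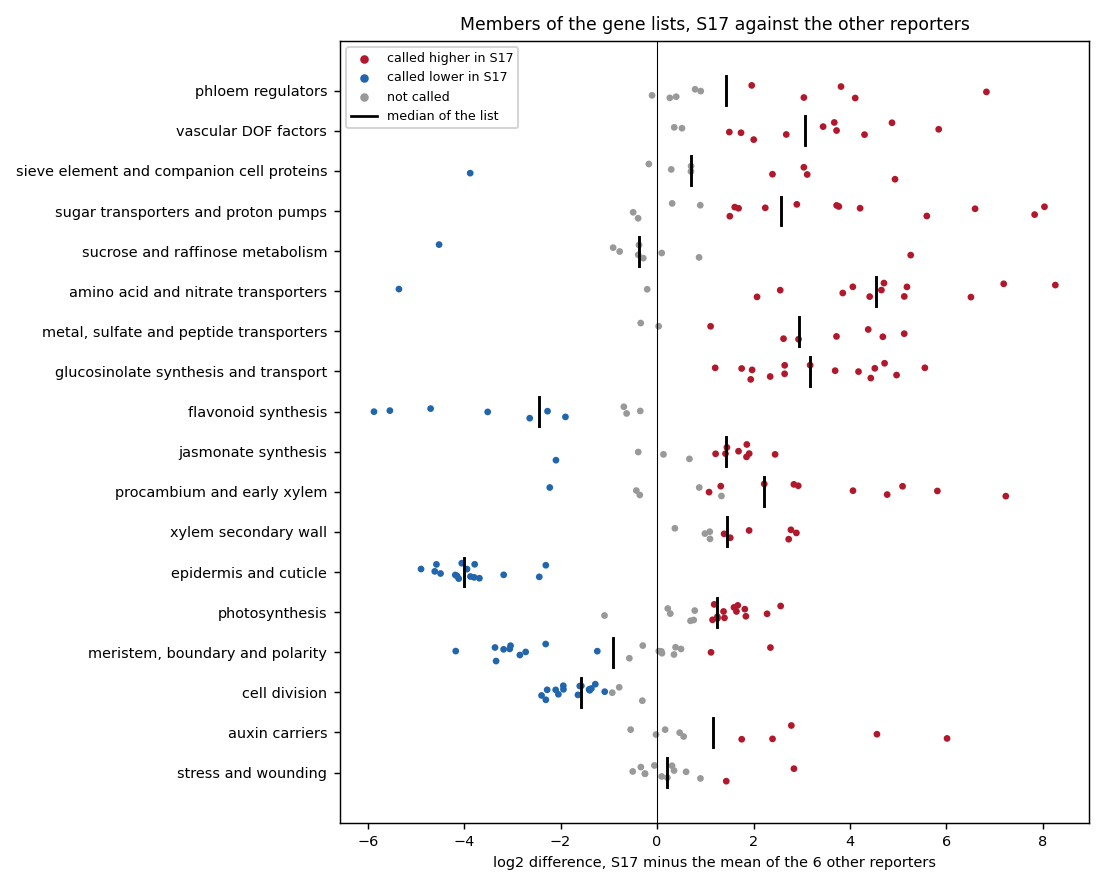
log2 difference of S17 minus the mean of the 6 other reporters for each tested member of 18 gene lists; red points were called higher, blue lower and grey neither, and the black bar is the list's median. Amino acid, glucosinolate, Dof and sugar transport genes lie to the right, and epidermis, flavonoid and cell division genes to the left.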

How the data were processed

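Sorted protoplasts of Arabidopsis thaliana shoot apices were profiled on 19 ATH1 arrays of 7 reporters. The values are MAS5 intensity signals that the authors deposited on a linear scale, per the submitters' processing notes. Their trimmed mean without the lowest and highest 2% was the same on every array. MAS5's version and the annotation build are not given in the sources used here. The authors' deposited table of averaged signals, per the file headers, gave loci and detection calls, and its means lay within 0.005 of the means computed from the arrays. Its detection calls are given per reporter, so they were used only as counts of arrays. Control probe sets (64) were left out of 22810. Names came from the file and from the RefSeq gene table, in which 20776 of 21021 loci were found and 8872 had a symbol.

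A probe set was tested where each array of some reporter gave it a signal at or over that array's 40th percentile (15161 of 22746). limma 3.58.1 in R 4.3.3 fitted log2(signal + 1) with 1 mean per reporter and no block (12 residual and 3.06 prior degrees of freedom), and gave moderated tests with Benjamini-Hochberg adjustment over all tested probe sets. Tables were made with pandas 2.3.3. The fit was tested on simulated data. Where the dimmer side was called absent on every array, the bound divided the brighter mean by that of the dimmer side, whose signal on each array was raised to that array's lowest signal with a present call where it lay under it.

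The precision is limited by the number of arrays, 2 or 3 per reporter. Replicate numbers are not stated to mark a shared day, so they were not taken as pairs. Deviations of S17 arrays from their mean correlated with those of same-numbered arrays at -0.0479 to 0.159. Differently numbered arrays were not compared, so this range cannot exclude a shared batch. The members and the 20 gene lists (292 genes, 269 with a probe set) were chosen with earlier results of these data known. Named genes were the gene taken as the source of the S17 promoter, list members, and the largest differences among genes above or below every other array, by class, against AtHB8 and among overlapping genes. Classes were found by words of the annotation in the authors' table. Alternatives changed the pseudocount, normalization, filter, fold minimum, array weights, block, weights of the other arrays, the place of AtHB8 and each array in turn. Every column of signals was used, and no array was dropped.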

Additional observations from a re-analysis of the deposited data

How the results depend on the processing

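With no fold minimum, 3632 probe sets were higher and 4855 lower in S17 than in the 6 other reporters, and 1060 were higher and 1298 lower than in AtHB8. The share of higher among all calls against the 6 other reporters was then 42.8%, against 53.8% with it. With AtHB8 left out of the rest, 2384 probe sets stood above every other array and 2591 below. With each array left out in turn, 2041 to 2151 probe sets were higher and 1739 to 1903 lower, 574 to 694 were higher and 519 to 662 lower against AtHB8, and 1170 to 1432 stood above and 1031 to 1441 below every other array. With the replicate block, 2120 were higher and 1800 lower, and 689 were higher and 640 lower against AtHB8. The block ended 1 call among named genes, that of UMAMIT19 against AtHB8 (adjusted p = 0.0568).

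On the ratio of arithmetic means, values with no test, 3 named genes called higher turned below 0 on the log2 scale, TMO5 (-0.68), T5L1 (-0.42) and VND7 (-0.19). Of the calls of named genes, 20 more fell under 2-fold on that scale. The share of higher calls was 51.5% to 55.0% under the other settings that were tested. A pseudocount of 16 ended 9 calls of named genes and no filter ended 14. Signals near background limit the dim genes, and detection calls differ between arrays of a reporter. The 3 S17 arrays give no measure of differences between plants or sorts.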

Other observations

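Gene families outside the lists were also described. They were picked by the names and annotation words of their members after their values had been seen, so their counts are descriptions. Among all tested probe sets, 13.9% were called higher in S17 and 12% lower.

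The UMAMIT transporters are a family of amino acid exporters with some members in the amino acid list above. Of 36 with a probe set, 24 passed the filter on dim signals and were tested. Of these, 18 were called higher in S17 and none lower (limma, also at an unadjusted p under 0.05). In the family 17 stood above every other array, and the median log2 difference was 4.36 (3.76 with bounds). UMAMIT21 had 972, 981 and 896 in S17, against 2.27 to 65.8 (median 18.8) on the 16 other arrays (at least 30.1-fold higher, adjusted p = 2.18e-05). UMAMIT12 had 3035, 1661 and 1875 in S17, against 29.9 to 371 (median 66.2) elsewhere (log2 difference 4.76 ± 0.24, adjusted p = 8.04e-10). Of 24 tested members of the proton-dependent oligopeptide transport family, which also holds nitrate and glucosinolate carriers, 15 were called higher and 2 lower. AT2G37900 had 1671, 4216 and 3076 in S17 and 5.1 to 507 (median 36.5) elsewhere (log2 difference 6.11 ± 0.54, adjusted p = 2.11e-07), and PTR1 (AT3G54140), a peptide carrier, had 941, 1117 and 1262 in S17 and 6.28 to 297 (median 79.9) elsewhere (log2 difference 3.92 ± 0.53, adjusted p = 1.5e-05). Of 12 tested tau class glutathione transferases, 7 were called higher and 1 lower. Beside GSTU20, GSTU23 (AT1G78320) had 692, 458 and 574 in S17, against 5.83 to 51.4 (median 23.5) (log2 difference 4.75 ± 0.31, adjusted p = 7.79e-09), and GSTU27 (AT3G43800) had 3208, 1789 and 1464, against 12.2 to 307 (median 107) (log2 difference 4.47 ± 0.37, adjusted p = 1.21e-07). In each of these genes the 3 S17 arrays stood above the other 16.

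Of 7 tested CLE genes, which encode short signalling peptides, 3 were called higher and 3 lower. CLE41 and CLE44 are precursors of TDIF, the peptide that the procambial receptor PXY binds. CLE41 (AT3G24770) had 996, 746 and 929 in S17, 22.4, 35 and 32.7 in AtHB8 and 14.4 to 169 (median 51.1) on the 13 remaining arrays (log2 difference 4.25 ± 0.37, adjusted p = 1.76e-07). CLE44 (AT4G13195) had 591, 265 and 174 in S17, 21.7, 4.91 and 41.4 in AtHB8 and 16.3 to 81.4 (median 52.5) on the remaining arrays (log2 difference 2.95 ± 0.50, adjusted p = 0.000126). Both stood above every other array, AtHB8 included. CLE17 (AT1G70895) was absent in S17 at 61.2, 25 and 41.4, against 8.71 to 2488 (median 1283) elsewhere (at least 19-fold lower, adjusted p = 1.53e-07). The lower call of CLE21 was lost without S17 replicate 1 or 2 or 3 or HDG4 replicate 3 or LAS replicate 2 or KAN1 replicate 2 or 3 or AtML1 replicate 3 or HMG replicate 1 (log2 difference -1.18, adjusted p = 0.198, without S17 replicate 1), and that of CLE27 without S17 replicate 2 (log2 difference -1.23, adjusted p = 0.0802). Of 16 tested trehalose synthase and phosphatase genes, 6 were called higher and 2 lower. Their median log2 difference was 0.72, with a range of -3.08 to 4.89. Among those called higher, the synthase gene TPS1 (AT1G78580) had 1999, 1449 and 1224 in S17, against 30.1 to 315 (median 149) elsewhere (log2 difference 3.51 ± 0.24, adjusted p = 1.36e-08), and the phosphatase gene TPPB (AT1G78090) had 467, 516 and 584, against 5.4 to 177 (median 8.54) (at least 14.2-fold higher, adjusted p = 9.38e-07). Of 10 tested class I HD-Zip factors, 6 were called higher and 0 lower, with log2 differences from -1.36 to 5.16. The highest was HB-1 (AT3G01470), with 3916, 3818 and 3636 in S17, against 25 to 446 (median 108) elsewhere (log2 difference 5.16 ± 0.33, adjusted p = 7.21e-09). Of 17 tested aquaporins, 12 were called higher and 2 lower, with log2 differences from -3.25 to 4.89. The highest was PIP2A (AT3G53420), with 7769, 8752 and 8748 in S17, 4617, 5078 and 4085 in AtHB8 and 41.6 to 1800.5 (median 96.4) elsewhere (log2 difference 4.89 ± 0.35, adjusted p = 2.41e-08), and a log2 difference from AtHB8 of 0.88 (adjusted p = 0.212).

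Of 31 tested core histone genes, none was called higher (limma, also at an unadjusted p under 0.05) and 26 were called lower, 14 stood below every other array, and the median log2 difference was -1.56. Histone genes have near-identical copies, and probe sets may be shared between them. Of the 26 calls, that of HTA7 was lost without S17 replicate 3 (log2 difference -0.94, adjusted p = 0.00329), that of AT5G10980 without S17 replicate 2 (log2 difference -0.96, adjusted p = 9.93e-05) and that of AT5G10400 without S17 replicate 3 (log2 difference -0.94, adjusted p = 0.0544).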
